A study of Mus musculus with 4 samples.

Results

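The oxidative phosphorylation genes were taken as every gene whose symbol begins with Nduf, Uqcr, Cox4 to Cox8 or Atp5, or is Sdha, Sdhb, Sdhc or Sdhd, and which had a probe set of its own on the array. This rule found 89 of the 22180 genes with a probe set that names 1 gene. They comprised 32 subunits of complex I, 8 assembly factors of complex I with names in Ndufaf, 4 subunits of complex II, 7 of complex III, 18 genes of complex IV and 17 of complex V. The other 3 were Ndufa4l2, a paralog of Ndufa4, and the pseudogenes Atp5c1-ps and Uqcrh-ps1. Ndufa4 was counted with complex IV, where its protein is found.

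Caecal tissue of C57Bl/6 mice, 21 weeks old, was measured on 4 Affymetrix arrays, 1 for each group. The groups were apoE knock-out (KO) mice with prebiotics, KO mice without prebiotics, wild-type (WT) mice with prebiotics and WT mice without prebiotics. All of them were fed an n-3 PUFA depleted diet (PUFA, polyunsaturated fatty acids), and the prebiotic was Orafti P95, of which each mouse got 250 mg a day for the final 15 days. Each array held a pool of RNA from 6 mice picked for RNA quality, so the spread between mice is not seen, and the p-values speak only of variation among the 4 pools. For both WT arrays the title, source name and treatment field give a diet and the description gives the other one; WT arrays are grouped here by title, and a WT array is "titled" with or without prebiotics for that reason. The sources used here do not say how the KO allele was made.

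Oxidative phosphorylation is the last stage of respiration. Complexes I and II pass electrons from NADH and succinate to ubiquinone, complex III passes them on to cytochrome c and complex IV to oxygen, and complexes I, III and IV pump protons across the inner mitochondrial membrane as they do so. Complex V, the ATP synthase, lets the protons back and makes ATP. The epithelial cells of the caecum and colon are known to burn butyrate, a product of bacterial fermentation, in their mitochondria. Most subunits are encoded in the nucleus, and a few core ones in mitochondrial DNA; none of the 13 listed mitochondrial genes had a probe set that names it alone, and they were not analysed here.

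Promoters of many of these genes are known to hold sites for NRF1 and for ETS factors such as GABP, and 300-base windows (250 bases before to 50 after the start of the gene, RefSeq, build GRCm38.p6) were found for 72 of the 89 genes, in 77 windows. The letters CGCNTGCGC, the NRF1 motif, stood on either strand in 21 of the 77 windows (27.3%), against 8.58% of the windows of all protein-coding genes. The ETS motif CCGGAAG stood in 19 windows (24.7%), against 11.6% of coding windows. The YY1 motif AANATGGCG was in 10 windows (13.0%, against 3.12%), and the ERR motif TCAAGGTCA was in 2 (2.60%, against 0.334%), those of Atp5g3 and Sdhd. The median GC content was 58.3% in these windows and 56.3% in coding windows. The 250 bases before the start are shown for Cox6a1, Sdhd and Atp5h, which are among the 6 genes whose windows hold both the NRF1 and the ETS motif, for Atp5e, which differed most between the prebiotic pairs, and for Cox5b, which had the largest prebiotic difference over both genotypes. Capitals mark matches to the NRF1 and ETS motifs on either strand, and each line runs 5′ to 3′ on the strand of the gene.
Cox6a1, chr5:115348959-115349208, minus strand: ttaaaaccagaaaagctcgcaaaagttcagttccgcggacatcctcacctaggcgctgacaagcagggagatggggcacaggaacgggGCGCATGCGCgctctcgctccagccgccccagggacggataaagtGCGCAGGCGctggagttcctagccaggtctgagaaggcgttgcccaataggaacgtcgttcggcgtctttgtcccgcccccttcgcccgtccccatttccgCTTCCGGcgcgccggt
Sdhd, chr9:50603850-50604099, minus strand: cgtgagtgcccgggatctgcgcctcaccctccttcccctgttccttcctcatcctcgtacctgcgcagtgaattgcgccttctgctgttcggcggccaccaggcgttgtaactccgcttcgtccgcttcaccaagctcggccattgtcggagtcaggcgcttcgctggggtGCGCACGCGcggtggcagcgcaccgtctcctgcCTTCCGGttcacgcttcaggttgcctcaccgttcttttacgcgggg
Atp5h, chr11:115419920-115420169, minus strand: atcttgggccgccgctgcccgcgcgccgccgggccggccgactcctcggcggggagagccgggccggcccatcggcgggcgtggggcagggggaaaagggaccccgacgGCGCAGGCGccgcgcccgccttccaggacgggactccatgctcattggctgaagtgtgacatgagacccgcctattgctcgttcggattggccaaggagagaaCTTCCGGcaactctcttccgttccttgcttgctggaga
Atp5e, chr2:174464102-174464351, minus strand: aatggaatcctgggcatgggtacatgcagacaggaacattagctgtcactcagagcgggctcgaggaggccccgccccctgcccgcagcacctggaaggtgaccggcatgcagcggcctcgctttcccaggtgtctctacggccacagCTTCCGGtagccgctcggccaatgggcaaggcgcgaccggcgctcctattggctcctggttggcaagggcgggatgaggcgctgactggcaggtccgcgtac
Cox5b, chr1:36691237-36691486, plus strand: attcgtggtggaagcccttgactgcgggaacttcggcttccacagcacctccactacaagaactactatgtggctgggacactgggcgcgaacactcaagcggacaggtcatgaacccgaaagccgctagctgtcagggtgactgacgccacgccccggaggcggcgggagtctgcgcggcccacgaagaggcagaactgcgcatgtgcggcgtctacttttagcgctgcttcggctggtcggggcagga
A window was counted once per motif, whether the match was on 1 strand or both. Cox6a1 carried overlapping NRF1 matches on opposite strands at -162 and -161, another at -117 and an ETS match at -16 relative to its start. In Sdhd they lay at -79 (NRF1) and -46 (ETS), in Atp5h at -141 and -38, and Atp5e had an ETS match alone, at -102. Cox5b had no match to these letters in the stretch shown. A match describes the letters of the window only; no binding was measured.

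The array values are log2 signals, and a gene entered a comparison where its value reached the median of the named probe sets (2.99 to 3.01) on at least 1 of the arrays compared. Of the 89 genes, 80 passed over the 4 arrays: 31 of complex I, 8 assembly factors, 4 of complex II, 7 of complex III, 15 of complex IV and 15 of complex V. The 9 that did not pass were Atp5c1-ps, Atp5g1, Atp5o, Cox7b2, Cox8b, Cox8c, Ndufa4l2, Ndufs5 and Uqcrh-ps1. On all 4 arrays 75 genes reached the median; Ndufaf2 did so on 3 arrays, Cox6a2 on 2, and Atp5j2, Cox4i2 and Cox6b2 on 1 each. Apoe itself stood at 3.13 with and 2.83 without prebiotics in KO mice, against 4.09 and 3.90 in WT mice, all in log2 units. Both KO arrays were below both WT arrays, by 1.02 on the log2 scale (SE 0.16, adjusted p = 0.78 in limma), the direction the KO label gives, although the targeted gene itself did not pass the test. Between any pair of arrays the log2 values of all probe sets correlated at r = 0.984 to 0.988. Of the colonocyte markers 9 of 9 passed the filter, and of the general epithelial markers 10 of 10.

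Across the 4 arrays the oxidative phosphorylation genes held nearly the same level. The mean log2 level of the 80 genes was 7.07 with and 7.06 without prebiotics in KO mice, against 7.05 and 7.07 on the WT arrays titled with and without. The spread of a single gene between its highest and lowest array was 0.19 at the median on the log2 scale. It ran from 0.03 for Atp5c1, the gamma subunit of the central stalk of ATP synthase, to 0.55 for Cox4i2, which passed the filter only through its highest array. For 78 of the 80 genes (97.5%) the spread stayed under 0.5, as it did for 83.7% of the 13083 genes tested, whose median spread was 0.30. All genes tested had lower signals, with a mean log2 level of 4.83 with and 4.79 without prebiotics in KO mice. On the WT arrays titled with and without it was 4.81 and 4.79. Neither this spread nor the shares of all genes given below were matched for signal level. In a tissue pool, fewer cells of a type and less RNA per cell cannot be told apart.

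**Figure D1:**
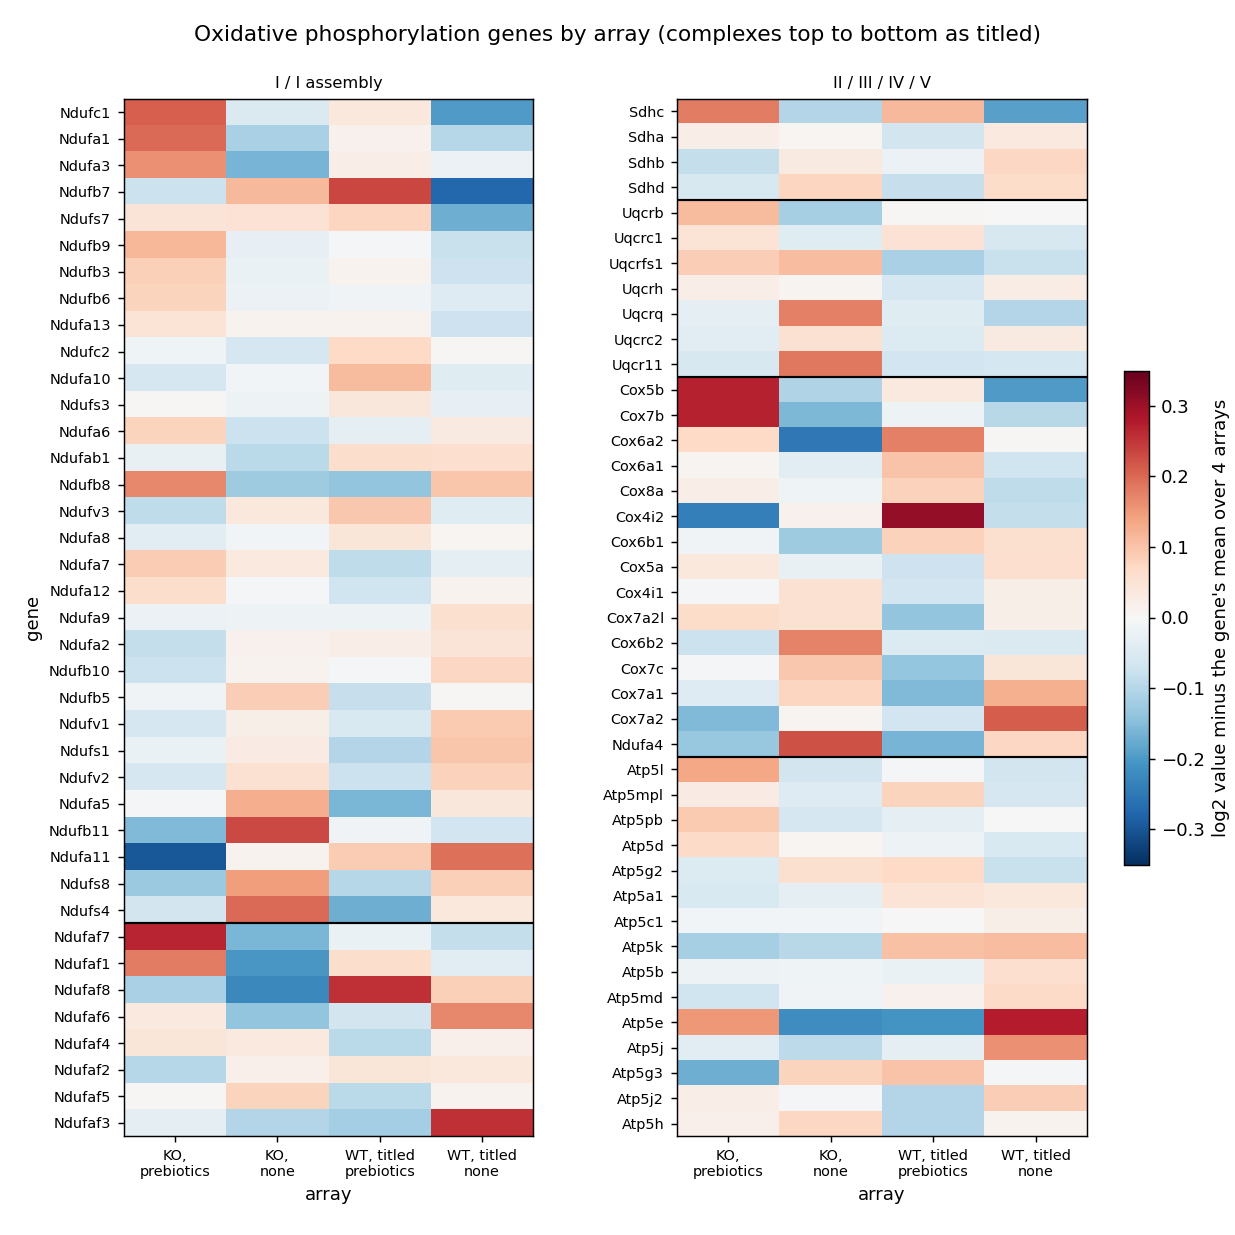
The heat map gives, for each of the 80 genes that passed the filter, the log2 value on each array minus that gene's mean over the 4 arrays, with the KO arrays left of the WT arrays and lines between complexes. Atp5b, Atp5c1 and Sdha stay pale across the row, while Cox5b, Sdhc and Ndufc1 are above their mean on the KO array with prebiotics and below it in the WT pool titled without.

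The genotype comparison set both KO arrays against both WT arrays. No oxidative phosphorylation gene passed limma's test in either direction (0 of 80 at an adjusted p under 0.05, and 0 of 80 at an unadjusted p under 0.05). Over all 13083 genes 0.0% were called higher and 0.0% lower, and 3.29% had an unadjusted p under 0.05. The median difference, KO minus WT, was 0.014 over the 80 genes and 0.010 over all genes tested, on the log2 scale. Of the 80 genes, 46 had a positive and 34 a negative difference. Every one of the 80 intervals (95%) lay within 2-fold in both directions, from -0.68 at the lowest bound to 0.54 at the highest, as did those of 98.3% of all genes. A log2 difference of 0.32 or more in size was seen in 1 gene of the 80, against 5.67% of all genes.

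By complex, the median genotype difference in log2 was 0.02 for complex I, -0.05 for its assembly factors, 0.02 for complex II, 0.03 for complex III, 0.03 for complex IV and -0.02 for complex V. Both KO arrays lay above both WT arrays in 8 of the 80 genes (against 16.2% of all genes tested), and below both in 14 genes (17.5%, against 14.0%). In the other 58 genes the genotypes overlapped. Genes with KO below WT were 6 of complex I, 5 of complex V, 2 assembly factors and 1 of complex IV; those with KO above were 3 of complex III, 2 of complex V and 1 each of complex I, complex IV and the assembly factors.

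**Figure D2:**
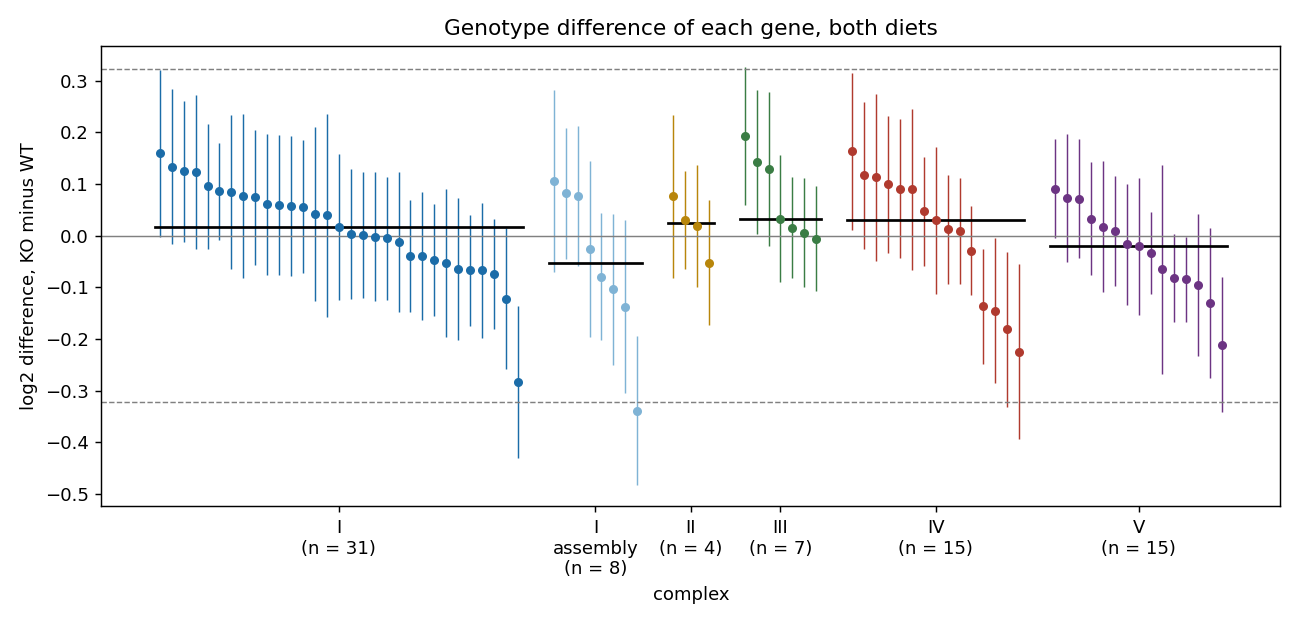
Each point is the log2 difference KO minus WT of 1 gene over both diets, with its standard error as a line, sorted within each complex; black bars are the medians and dashed lines mark 0.32 each way. The medians lie between -0.05 and 0.03, and only Ndufaf8 lies past a dashed line.

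Uqcrfs1, the Rieske iron-sulphur protein through which complex III hands electrons to cytochrome c1, had the highest genotype difference. Its log2 level was 5.92 with and 5.95 without prebiotics in KO mice, against 5.72 and 5.76 in WT mice. The groups did not overlap, and the difference was 0.19 (SE 0.13). The next were Cox5b (0.16), the small membrane-arm subunit Ndufc1 (0.16), the complex III subunit Uqcrq (0.14) and Ndufs4, an accessory subunit of the matrix arm of complex I (0.13). With 1 array left out at a time, Uqcrfs1 stayed between 0.18 and 0.21, while Ndufc1 ran from 0.029 to 0.29, Uqcrq from 0.038 to 0.25 and Ndufs4 from 0.0020 to 0.27. For Cox5b the sign differed between its probe sets, as given with the probe sets of Atp5d.

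Ndufaf8, an assembly factor that partners Ndufaf5, had the lowest difference. It stood at 4.11 with and 4.002 without prebiotics in KO mice, against 4.48 and 4.31 in WT mice. Both KO arrays were below both WT arrays, by 0.34 on the log2 scale (difference -0.34, SE 0.14, unadjusted p = 0.051, adjusted p = 0.999 in limma). Ndufa11, a membrane-arm subunit of complex I, had 7.30 and 7.61 in KO mice against 7.69 and 7.79 in WT mice, with and without prebiotics in each pair. Here too the genotypes did not overlap, with a difference of -0.28, though its second probe set, near or below the array median, had the opposite sign. Cox4i2 (-0.22), Atp5k (-0.21), which is subunit e of ATP synthase and is known for its part in dimers of the enzyme, and Cox6a2 (-0.18) followed. With 1 array left out at a time, Atp5k stayed between -0.22 and -0.20 and Ndufaf8 between -0.43 and -0.25, while Ndufa11 ran from -0.44 to -0.13, Cox4i2 from -0.42 to -0.028 and Cox6a2 from -0.34 to -0.021. Cox4i2 and Cox6a2 lie near the median of the array, where RMA values compress differences. Cox4i2 passed the filter only through the WT array titled with prebiotics, where it was highest (3.23). Its place among the lowest differences is therefore not independent of the filter.

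The catalytic and core subunits differed little by genotype. Atp5a1 and Atp5b, the alpha and beta subunits of the catalytic head of ATP synthase, had 10.95 and 11.47 in KO mice with prebiotics, 10.97 and 11.48 in KO mice without, 11.05 and 11.47 in WT mice titled with and 11.04 and 11.55 in WT mice titled without. Atp5a1 was lower on both KO arrays and Atp5b overlapped. Uqcrc1 and Uqcrc2, the large core proteins of complex III that face the matrix, overlapped between genotypes: Uqcrc1 had 9.45 and 9.36 in KO mice against 9.45 and 9.35 in WT mice, and Uqcrc2 had 9.97 and 10.06 against 9.96 and 10.04. Cox4i1, the common form of the largest nuclear subunit of complex IV, had 9.14 and 9.20 in KO mice against 9.08 and 9.17 in WT mice. Cox5a, which also belongs to complex IV, had 9.53 and 9.47 in KO mice against 9.42 and 9.55 in WT mice. Neither separated the genotypes.

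Markers of other cell types also differed by genotype, none of them called. All 12 smooth muscle markers were higher in KO mice (median 0.32 in log2), with a mean log2 level of 7.32 and 7.47 in KO mice against 6.92 and 7.22 in WT mice. All 10 fibroblast and matrix markers were higher in KO mice (median 0.29), and all 7 B cell markers that were measured were lower (median -0.36), with a mean log2 level of 2.82 and 3.41 in KO mice, with and without prebiotics, against 3.53 and 3.51 in WT mice, so that the KO pool with prebiotics stood lowest. Striated muscle markers stayed near the array median, at a mean of 2.89 and 2.84 against 2.95 and 2.79, with Myh4, Myh1, Actn3 and Mylpf not passing the filter. The part of these cells in the genotype values was not tested. Cox6b2, Ndufa3 and Cox7a1 lie on chromosome 7 within 150 measured genes of Apoe (107, 131 and 132 genes away), and DNA of another strain carried along with the KO allele was not tested.

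The prebiotic comparison over both genotypes set the array with prebiotics against the one without within each genotype. No oxidative phosphorylation gene was called (0 of 80 by limma at an adjusted p under 0.05), against 0.994% of all genes called higher and 0.26% called lower. At an unadjusted p under 0.05 there were 9 of the 80 genes (11.2%), 5 higher and 4 lower, against 13.8% of all genes. The median difference, with minus without prebiotics, was -0.020 over the 80 genes and 0.022 over all genes tested. All 80 intervals (95%) lay within 2-fold, from -0.51 to 0.56, as did 98.8% of those of all genes. None of the 80 differed by 0.32 or more in this fit, against 10.6% of all genes. The test has 1 residual degree of freedom and rests on the titles of the WT arrays.

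Of the 80 genes, 25 were higher with prebiotics in both pairs (31.2%, against 34.1% of all genes) and 27 were lower in both (33.8%, against 25.1%). The other 28 went opposite ways. In complex I, 10 were higher in both pairs, 11 lower and 10 mixed; the counts were 1, 2 and 1 in complex II, 2, 3 and 2 in complex III, 6, 5 and 4 in complex IV, 3, 5 and 7 in complex V, and 3, 1 and 4 among the assembly factors. The median prebiotic difference was 0.005 in complex I, -0.04 in the assembly factors, -0.07 in complex II, -0.03 in complexes III and IV and -0.01 in complex V. The 6 nuclear core subunits of complex I that were measured, most of which bind the flavin or the iron-sulphur clusters, had a median of -0.12. Of these, Ndufs8 stood at 8.30 with and 8.58 without prebiotics in KO mice and at 8.33 and 8.51 on the WT arrays. Ndufv1 had 7.84 and 7.92 in KO mice and 7.85 and 7.99 in WT mice, Ndufv2 8.62 and 8.73 and then 8.61 and 8.76, and Ndufs1 8.15 and 8.20 and then 8.07 and 8.27. These 4 were lower with prebiotics in both pairs. Ndufs3 had 4.36 and 4.34 in KO mice and 4.40 and 4.33 in WT mice, and Ndufs7, which holds the last cluster before the quinone, had 9.20 and 9.21 and then 9.23 and 8.99. None of the 6 passed the test.

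Cox5b, a nuclear subunit of complex IV on the matrix side, had the highest prebiotic difference. Its log2 level was 9.98 with and 9.60 without prebiotics in KO mice, and 9.74 and 9.51 on the WT arrays titled with and without. The arrays with prebiotics were the 2 highest, and the difference was 0.31 (SE 0.07, adjusted p = 0.082 in limma), the lowest adjusted p among the 80 genes. The second probe set of Cox5b, near or below the array median, had a prebiotic difference of -0.14. As a mean over probe sets the difference was 0.08 (adjusted p = 0.85 in limma). Sdhc, one of the membrane anchors of complex II that bind its haem, had 8.34 and 8.06 in KO mice and 8.28 and 7.97 in WT mice. Both arrays with prebiotics were again above both without, with a difference of 0.29 (SE 0.09, adjusted p = 0.17). The other subunits of complex II had smaller differences: the flavoprotein Sdha had 10.13 and 10.12 in KO mice and 10.05 and 10.15 in WT mice, the iron-sulphur protein Sdhb 7.99 and 8.11 and then 8.06 and 8.15, and the other anchor, Sdhd, 8.76 and 8.89 and then 8.73 and 8.88. Sdhb and Sdhd were lower with prebiotics in both pairs. Cox7b (0.25, SE 0.11), Ndufc1 (0.25, SE 0.12) and Cox6a2 (0.25, SE 0.13) completed the 5 highest. Cox6a2 passed the filter only through the arrays with prebiotics (3.01 in KO and 3.11 in WT mice). Without prebiotics it was under the array median (2.68 and 2.94), so its place in this order is not independent of the filter. Cox7b rested mostly on the KO pair, since without 1 array it ran from 0.079 to 0.43.

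Ndufa4 had the lowest prebiotic difference. It stood at 8.53 with and 8.89 without prebiotics in KO mice and at 8.50 and 8.74 in WT mice. Both arrays with prebiotics were below both without, with a difference of -0.30 (SE 0.08, adjusted p = 0.14 in limma). Ndufs4 had 7.39 and 7.66 in KO mice and 7.29 and 7.49 in WT mice, with a difference of -0.24 (SE 0.10, adjusted p = 0.35). Ndufs8 (-0.23, SE 0.09, adjusted p = 0.28), Cox7a2 (-0.22, SE 0.09, adjusted p = 0.32) and Ndufa11 (-0.21) were next. Members of 1 complex thus lay at both ends of the order, with Cox5b and Cox7b at the high end and Ndufa4 and Cox7a2, all of complex IV, at the low end. The places of Cox5b and Cox7b rest on the probe set chosen. Their second probe sets, which had lower signals, gave prebiotic differences of -0.14 and -0.20.

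Within the KO pair, where the labels do not conflict, 78 genes were measured, 39 in each direction, with a median of 0.003 against 0.036 over all genes. With 1 array a group there is no test. A log2 difference of 0.32 or more, with over without prebiotics, was seen in 5 genes (6.41%, against 12.1% of all genes), namely Cox7b (0.43), Ndufaf7 (0.42), Ndufaf1 (0.38), Cox5b (0.38) and Atp5e (0.37). Ndufaf7 is a methyltransferase and Ndufaf1 a chaperone that act in the assembly of complex I. Ndufaf7 had 5.60 with and 5.18 without prebiotics, and Ndufaf1 had 4.50 and 4.11. At -0.32 or below were 2 genes (2.56%, against 7.17%), Ndufb11 (-0.39) and Ndufa4 (-0.35); Ndufa11 (-0.31), Ndufs8 (-0.28) and Ndufs4 (-0.26) came next. Ndufb11 lay at 3.004 with and 3.39 without prebiotics, near the array median. None reached 2-fold, against 0.614% of all genes. With centred arrays, 4 genes lay at or above 0.32 and 4 at or below -0.32.

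In the WT pair, as titled, 79 genes were measured, 37 higher and 42 lower, with a median of -0.021 against 0.018 over all genes. At 0.32 or above were Ndufb7 (0.51) and Cox4i2 (0.39), 2.53% against 11.0% of all genes. Cox4i2 lay near the array median and passed the filter only through the array titled with prebiotics (3.23, against 2.84). Sdhc (0.31), Ndufs7 (0.25) and Ndufc1 (0.24) followed. At -0.32 or below were Atp5e (-0.48) and Ndufaf3 (-0.38), again 2.53% against 7.35% of all genes; Cox7a2 (-0.28), Cox7a1 (-0.28) and Ndufa4 (-0.24) followed. Ndufb7, an accessory subunit of complex I, stood at 5.01 with and 4.50 without prebiotics. None reached 2-fold, against 0.515% of all genes. With the WT labels exchanged, as their descriptions have them, every sign of this pair turns round.

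**Figure D3:**
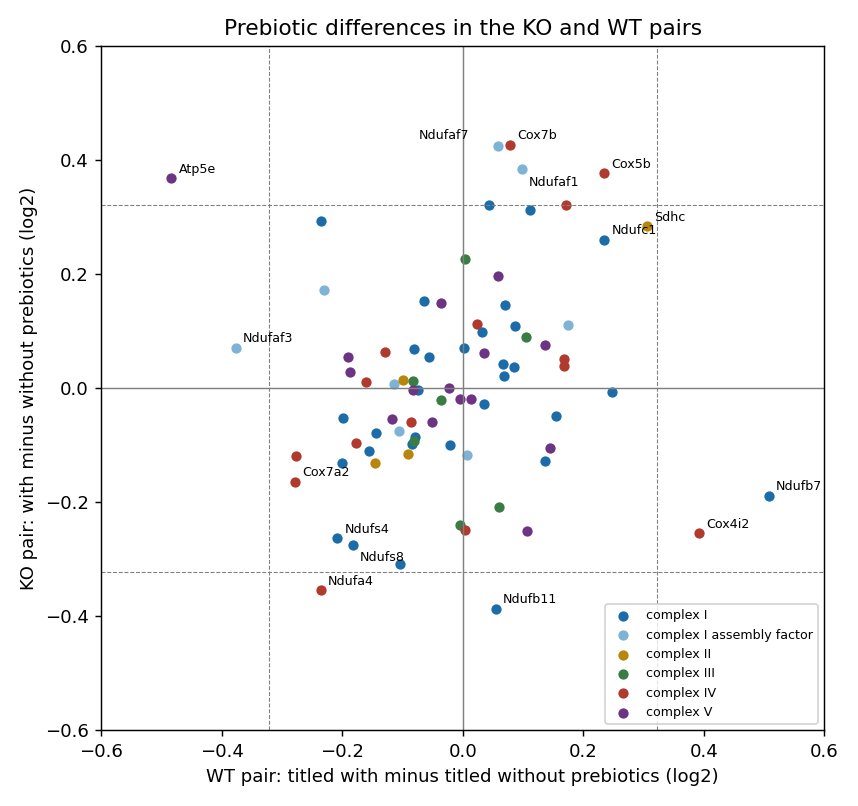
Each point is 1 gene, with its log2 prebiotic difference in the KO pair on the vertical axis and in the WT pair as titled on the horizontal axis, coloured by complex; dashed lines mark 0.32 each way. Most points lie inside the lines in both pairs, Atp5e is far to the upper left (0.37 in the KO pair and -0.48 in the WT pair), and Ndufb7 and Cox4i2 lie to the lower right. Both KO values of Cox4i2 were under the array median.

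Atp5e, the epsilon subunit of the central stalk of ATP synthase, had 7.27 with and 6.91 without prebiotics in KO mice and 6.91 and 7.40 in WT mice as titled. It was high in KO mice with prebiotics and in the WT pool titled without. Ndufb7 and Cox4i2 had the opposite arrangement, with KO pair differences of -0.19 and -0.25. Both KO values of Cox4i2 (2.68 and 2.93) were under the array median, so it was not among the genes measured in the KO pair. These differences between pairs were not tested, since the 4 arrays leave no residual degree of freedom for them.

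Complex IV has paralogs known from particular tissues, and each is given here by its own probe set, whose level cannot be set against that of another. Cox4i2, the form of subunit 4 known from lung, had 2.68 and 2.93 in KO mice against 3.23 and 2.84 in WT mice, with only the WT array titled with prebiotics above the array median. Cox6a2, the heart and muscle form of subunit 6a, had 3.01 and 2.68 against 3.11 and 2.94, and its partner Cox6a1 had 11.82 and 11.77 against 11.91 and 11.74. Cox6b2, known from testis, had 2.79 and 3.04 against 2.81 and 2.81, while Cox6b1 had 8.74 and 8.63 against 8.83 and 8.81. Cox7a1, known from heart and skeletal muscle, had 7.67 and 7.79 against 7.56 and 7.84, beside smooth muscle markers that were lower with prebiotics in 9 of 12 cases in the KO pair and 12 of 12 in the WT pair; their part in Cox7a1 was not tested. Cox7a2 had 8.13 and 8.30 against 8.22 and 8.50, and Cox7a2l had 4.76 and 4.75 against 4.56 and 4.72. Both KO arrays were higher for Cox7a2l, and the paralogs Cox8b, Cox8c, Cox7b2 and Ndufa4l2 did not pass the filter.

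Several results depended on the probe set that stood for the gene. Of the 89 genes, 9 had 2 probe sets, all of which passed the filter, and in 6 of them (Atp5d, Atp5g2, Cox5b, Cox7b, Ndufa11 and Ndufa12) the probe sets gave genotype differences of opposite sign. Some of these were smaller than their SE with every probe set in the fit. Atp5g2 had 0.008 and -0.041 (SE 0.11 for each), and Cox7b had 0.11 and -0.09 (SE 0.16 and 0.18). The filter asks for the median on 1 array only, and some second probe sets lay near it. That of Ndufa11 had 2.76 and 3.09 in KO mice against 2.79 and 2.69 in WT mice. Those of Ndufa12 and Cox7b had means of 3.09 and 3.43 over the arrays. Atp5d, the delta subunit of the central stalk, is represented by a probe set at 7.36 and 7.30 in KO mice and 7.28 and 7.24 in WT mice, with and without prebiotics. Its other probe set stood at 4.30 with and 5.20 without prebiotics in KO mice and at 4.49 and 5.45 in WT mice. That probe set was lower with prebiotics by 0.90 in the KO pair and 0.96 in the WT pair (differences -0.90 and -0.96), whereas the first differed by 0.06 and 0.03. When every named probe set was tested, a choice made after seeing the data, the second Atp5d probe set passed limma's test for prebiotics (difference -0.93, SE 0.13, adjusted p = 0.014) and no other probe set of these genes did. The second probe set of Atp5e went the other way from the first, with -0.24 in the KO pair and 0.36 in the WT pair. Its signal was much lower and nearer the array median, with a mean of 3.37 over the arrays against 7.12 for the first. The second of Cox5b, near or below the array median, had 2.63 and 2.60 in KO mice against 2.89 and 3.20 in WT mice, a genotype difference of -0.44 where the first gave 0.16.

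**Figure D4:**
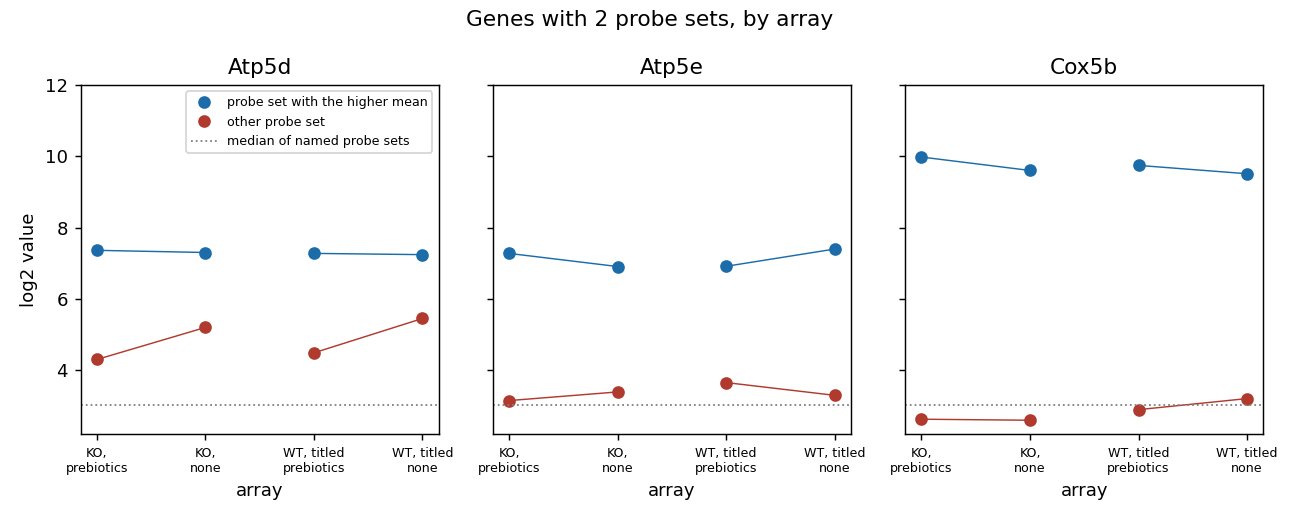
Log2 values of both probe sets of Atp5d, Atp5e and Cox5b are plotted by array, KO arrays to the left, with lines joining the arrays of a genotype and a dotted line at the median of the named probe sets. The 2 Atp5d probe sets part with prebiotics: 1 is level and the other is lower on both arrays with prebiotics.

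Another 7 coding genes of these families were measured only on probe sets that name several genes, so that their signal may come from a near copy: Ndufb2, Uqcr10, Ndufs6, Cox6c, Ndufb4, Ndufb4b and Ndufb4c. The probe set shared by Uqcr10 and Gm6293 had 5.28 and 5.44 in KO mice against 5.26 and 5.56 in WT mice. One of those shared by Cox6c and Gm6265 had 10.02 and 10.01 against 9.98 and 10.06. Ndufs5, whose own probe set did not pass the filter, shares another with its pseudogene Ndufs5-ps, and this one had 5.28 and 4.83 in KO mice against 4.78 and 4.60 in WT mice, the largest of such probe sets in these comparisons (0.37 for KO minus WT and 0.45 in the KO pair). Both KO arrays were above both WT arrays.

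Genes that serve the same complexes gave the same count of calls in both fits, 0 in each of the lists. Of 36 measured assembly factors with other names, 22 were higher and 14 lower in KO mice (median 0.05), and 22 and 14 with prebiotics (median 0.03). Of 16 genes of the tricarboxylic acid cycle and pyruvate dehydrogenase, which feed electrons to the chain, 9 were higher and 7 lower in KO mice (median 0.01), and 5 and 11 with prebiotics (median -0.04). Of 15 regulators of mitochondrial genes, 10 were higher and 5 lower in KO mice (median 0.05), and 5 and 10 with prebiotics (median -0.02). Among the regulators, Esrra, which encodes the nuclear receptor ERR alpha, had 5.26 with and 4.35 without prebiotics in KO mice and 5.12 and 4.72 in WT mice, a difference of 0.66 (SE 0.16, adjusted p = 0.092 in limma). Both arrays with prebiotics were above both without. Other genes of the lists went the other way. Lrpprc, one of the assembly factors with other names, had a prebiotic difference of -0.54 (SE 0.12, adjusted p = 0.074 in limma). Tomm70a had -0.44 (SE 0.09, adjusted p = 0.060). It belongs to 14 measured genes of import and inner membrane organisation, of which 4 were higher and 10 lower with prebiotics. Lrpprc and Tomm70a were lower with prebiotics in both pairs. Nrf1, whose protein binds the NRF1 motif, had 4.84 and 4.72 in KO mice and 4.75 and 4.70 in WT mice. By motif, the median prebiotic difference was -0.05 over the 18 measured genes with an NRF1 match, -0.01 over the 19 with an ETS match, -0.041 over the 10 with a YY1 match, -0.10 over the 2 with an ERR match and -0.00068 over the 28 with none of the 4 motifs. Electron transfer between complexes III and IV rests on cytochrome c, whose gene Cycs had 10.72 and 10.75 in KO mice and 10.72 and 10.82 in WT mice.

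Colonocyte markers were higher with prebiotics, while the medians of the complexes lay between -0.07 and 0.005. All 9 colonocyte markers were higher with prebiotics in both pairs, against 34.1% of all genes. The median was 0.49 in log2 in the KO pair and 0.33 in the WT pair. In limma over both genotypes 6 of the 9 were called higher, against 0.994% of all genes. The mean log2 level of the colonocyte markers was 10.63 with and 10.18 without prebiotics in KO mice and 10.63 and 10.25 in WT mice. The markers of small intestinal enterocytes and Paneth cells were higher in all 11 cases in the KO pair (median 1.22) and in 8 of 9 in the WT pair (median 0.21). Other lists went lower over both genotypes. Of 12 smooth muscle markers 11 were lower and 3 called lower, of 6 adipocyte markers 3 were lower and 2 called lower, and 6 of 8 goblet cell markers were lower. Of all genes 0.26% were called lower. The lists were chosen with earlier results of these data known. The part of these cell types in the values of the oxidative phosphorylation genes was not tested.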

How the data were processed

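Log2 values of 41345 probe sets on 4 arrays were deposited by the authors, made with Affymetrix Expression Console and RMA per the submitters' processing notes; their versions and a genome build were not given in the sources used here. RMA corrects background, equalises the distributions of the arrays and combines the probes of a set, so that differences near background are compressed; base 2 is assumed because RMA gives it. Per the labels' protocols, 100 ng of pooled RNA was labelled for each array. The annotation named 1 gene for 23521 probe sets, several for 1814 and none for 16010. All 89 genes matched the RefSeq table, and 0 symbols changed.

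The probe set with the highest mean stood for its gene. limma 3.58.1 in R 4.3.3 (lmFit, eBayes with a trend) was fitted to all 13083 genes past the filter, two-sided, with Benjamini-Hochberg adjustment over all of them and calls at an adjusted p under 0.05. The genotype model had 2 residual degrees of freedom and the prebiotic model, with genotype as a term, 1. An exact permutation test of 2 arrays against 2 cannot go below p = 0.33. The pairs used 12216 (KO) and 12223 (WT) genes, with no test. The 13 marker lists and 8 pathway lists and the genes themselves were chosen with earlier results of these data known. Named genes were the 5 highest and 5 lowest per comparison, core subunits, paralogs and genes with several probe sets. The genes outside the rule (Apoe, Esrra, Lrpprc, Tomm70a, Nrf1 and Cycs) were added for context. The fit was run on simulated data with independent noise of the same size for every gene, where it called 100% of 2-fold changes. On the arrays themselves the Apoe difference of -1.02 was not called. The simulation therefore does not show what size of change these arrays could detect. The number of arrays limits the precision, and the spread between mice is unknown. Alternatives were other filters, the mean over probe sets, cyclic loess, centred arrays, no trend, diet as a block, the WT pair exchanged and each array left out.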

Additional observations from a re-analysis of the deposited data

Results flagged for a closer look

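Atp5e is given again because its prebiotic differences had opposite signs in the genotypes: 0.37 in the KO pair and -0.48 in the WT pair as titled, a difference of 0.85 on the log2 scale. The difference was not tested, since no residual degree of freedom is left for it. Its second probe set had the opposite arrangement (-0.24 and 0.36), at a mean log2 level of 3.37 against 7.12 for the first. With the WT labels exchanged the pairs would have the same sign.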

How the results depend on the processing

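No oxidative phosphorylation gene was called for genotype under any alternative run, and for prebiotics 1 probe set, of Atp5d, was called lower when every probe set entered. Over all genes, genotype calls were 0 in the main setting, 8 higher and 4 lower with diet as a block and WT by title, and 0 to 4 higher when an array was left out (4 without the KO array lacking prebiotics). The genotype median stayed between -0.01 and 0.03. The genotype difference of Cox5b was -0.14 as a mean over probe sets and -0.025 to 0.35 when an array was left out. For prebiotics, genes called, 130 higher and 34 lower, came to 68 and 17 without a filter, 216 and 108 with centred arrays, 21 and 4 without a trend, 52 lower with cyclic loess, and 0 and 0 with the WT pair exchanged (170 of 13083 genes at an unadjusted p under 0.05). The prebiotic median was -0.051 with cyclic loess, -0.053 with centred arrays, 0.013 with the WT pair exchanged and -0.013 to 0.0033 with an array left out; the exchange turned the sign of Cox7a2 (0.057) and Sdhc (-0.011) and brought Cox5b to 0.071, Ndufa4 to -0.060, Ndufs4 to -0.028, Ndufs8 to -0.046 and Ndufc1 to 0.013. The KO pair median was 0.0067 without a filter, 0.0086 as a mean over probe sets, -0.039 with loess and -0.044 with centred arrays. Past 0.32 in log2 the KO pair had 1 gene lower with the 75th percentile filter, 2 higher and 4 lower as a mean over probe sets, and 4 lower with centred arrays. The WT pair median was -0.0046 without a filter, -0.035 with the 75th percentile filter, -0.035 as a mean over probe sets, -0.029 with loess and 0.021 exchanged, and the stricter filter left 1 gene 0.32 or more higher and 2 lower. The cause of these shifts was not tested. Of the summary values, 110 kept their call or moved by less than 1.5 times or the spread between arrays, and 32 moved further. No paired analysis was possible because the shared replicate number 1 pairs nothing. Genotype was a term in the prebiotic model. The main genotype model had no diet term, and diet entered it only in the alternatives with diet as a block.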
